A study of Mus musculus with 28 samples.

Results

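4T1 mammary cancer cells were compared with HC11 mammary epithelial cells that had received the hormone treatment DIP. Libraries were chosen by the cell line and treatment labels alone. All 8 libraries of 4T1, labelled DOX, were set against all 10 HC11 libraries labelled DOX + DIP, which makes 18 of the 28 libraries of the series. The other 10 libraries were HC11 labelled DOX, called HC11 without DIP here. They were used to find which differences were absent or reversed against cells of the same line without the DIP label. The study measured total RNA of both lines by RNA sequencing after removal of ribosomal RNA. HC11 carries the genotype label untransformed and 4T1 the label cancer, and every library of all 3 groups carries the label DOX, so no library lacks it. The labels spell out neither abbreviation and give no dose, time, construct or culture. In HC11 work DIP usually stands for dexamethasone, insulin and prolactin. Cell line and hormone treatment differ together between 4T1 and HC11 with DIP and cannot be told apart in that comparison alone. Each group stands for a single cell line, and since no label says that libraries came from separate cultures, p-values measure only the spread between libraries.

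HC11 is a line of mouse mammary epithelium that keeps features of progenitor and basal cells. When such cells reach confluence and receive lactogenic hormones they stop dividing, dexamethasone acts through the glucocorticoid receptor, and prolactin acts through its receptor and STAT5 to switch on milk genes. 4T1 is a mouse mammary tumour line that grows and spreads in host animals and is widely used as a model of metastatic breast cancer. In dividing cells E2F factors drive the genes of DNA replication, and the MuvB complexes with B-MYB and FOXM1 drive the genes of mitosis, whereas in resting cells the DREAM complex holds both sets down.

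Levels are given in CPM, counts relative to the library total scaled by TMM factors, as the lowest, median and highest library of a group. Differences are log2 fold changes ± standard error from edgeR's quasi-likelihood test, adjusted by Benjamini-Hochberg over all genes tested, and a gene was called when its adjusted p was under 0.05. Libraries of the comparison held 134117581 to 222065843 counts with DIP and 174275141 to 198008179 in 4T1. HC11 libraries 8 and 10 with DIP stood apart from the other 8. Their mean log2 CPM over the glucocorticoid response list was 4.11 and 4.27 against 6.03 to 6.98 in the others, near the 3.65 to 4.08 of HC11 without DIP. Over the mitosis list they lay at 2.31 and 2.54, inside the range of the others, 1.06 to 3.66. Of the 11322 genes called at least 2-fold against DIP, 5649 (49.9%) had libraries 8 and 10 as the 2 lowest or the 2 highest of the 10. In 4T1, library 2 was the highest of the 8 for 776 of the 1583 genes called at least 16-fold lower, and library 1 for 268. Where leaving out either pair moved the fold of a named gene by over 1.5 times or changed its call, the value without them is given too. Mitochondrial genes took 1.47% to 3.35% of counts in 4T1 and 2.82% to 5.33% with DIP, and the part of RNA quality in the results was not tested. In bulk RNA, fewer cells of a kind and less RNA per cell cannot be told apart.

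Most measured genes differed between the groups. Of 24132 genes tested, 17814 (73.8%) were called, 8665 (35.9%) higher and 9149 (37.9%) lower in 4T1, so that 48.6% of the calls were higher. Counts of list members against DIP given below are to be read beside these shares. The split of calls into higher and lower depended on the scaling: with total counts only, without TMM factors, 37.5% of calls were higher and the median log2 fold change over all genes was -0.30, against -0.04 with TMM. At least 2-fold differences were called for 5132 genes (21.3%) higher and 6190 (25.7%) lower in 4T1. For 9552 genes (39.6%) the 18 libraries did not overlap between the groups. Against HC11 without DIP, 16688 of 23875 genes (69.9%) were called, 8178 (34.3%) higher and 8510 (35.6%) lower. Both comparisons use the same 4T1 libraries.

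The 4 marker genes separated the groups without overlap. Mki67, which encodes the Ki-67 protein of dividing cells, had 333, 431 and 515 CPM in 4T1 and 3.25, 8.71 and 27.6 CPM with DIP. All 8 libraries of 4T1 lay far above every hormone-treated library, and Mki67 was higher by 5.36 ± 0.39 (log2, adjusted p = 2.96e-10). Without DIP, HC11 had 87.8, 302 and 398 CPM, and the difference from 4T1 was 0.55 ± 0.19 (adjusted p = 0.015). Vim, the intermediate filament vimentin, had 2976, 3429 and 4378 CPM in 4T1 and 5.13, 15.8 and 137 CPM with DIP, and rose by 6.44 ± 0.74. Hormone-treated libraries were spread widely for this gene, yet none came near 4T1, and the difference from HC11 without DIP was as large, 6.74 ± 0.38.

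Both markers of the hormone-treated state were low in 4T1. Spp1, the secreted phosphoprotein osteopontin, had 106, 171 and 221 CPM in 4T1 and 503, 11660 and 21650 CPM with DIP, and fell by 5.92 ± 0.61 (adjusted p = 4.31e-08). Its 2 lowest hormone-treated libraries were 8 and 10, at 503 and 751 CPM, and the next lowest had 8664. Tsc22d3, the glucocorticoid-induced leucine zipper, had 10.4, 12.7 and 18.2 CPM in 4T1 against 34.2, 395 and 433 CPM with DIP, a fall of 4.52 ± 0.45. Libraries 8 and 10 again were lowest with DIP, at 34.2 and 47.7 CPM. Without these libraries the falls were 6.30 for Spp1 and 4.87 for Tsc22d3. Against HC11 without DIP the falls were smaller, 1.67 for Spp1 and 0.67 for Tsc22d3, and both were still called.

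**Figure D1:**
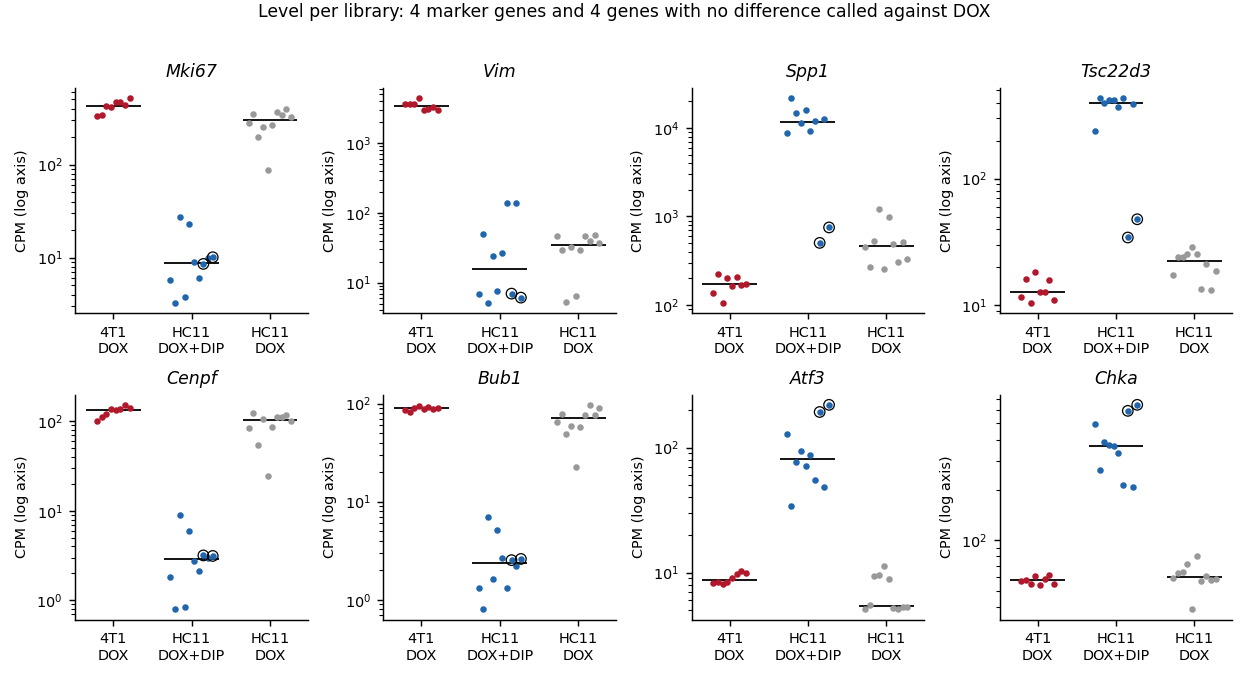
Levels in CPM on a log axis for each library of 4T1 (red), HC11 with DOX and DIP (blue) and HC11 with DOX (grey), with bars at group medians and circles around hormone-treated libraries 8 and 10. Mki67, Cenpf and Bub1 are low with DIP only, Atf3 and Chka are high with DIP only, Vim is high in 4T1 only, and for Spp1 and Tsc22d3 libraries 8 and 10 sit well below the other 8.

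The cell cycle genes rose together. All 26 listed genes of DNA replication and all 28 of mitosis and cytokinesis were higher in 4T1 than with DIP, with median log2 fold changes of 3.55 and 4.92 against -0.04 over all genes tested, and in all 54 the libraries of the groups did not overlap. Over all genes tested 35.9% were called higher and 39.6% did not overlap. Among replication genes, Pclaf, a PCNA-binding factor, rose by 5.59 ± 0.26, from 1.34, 3.08 and 4.92 CPM with DIP to 128, 147 and 159 CPM in 4T1. Rrm2, a subunit of ribonucleotide reductase that makes deoxynucleotides, rose by 5.29 ± 0.28. Mcm10, which helps start replication forks, rose by 5.07 ± 0.27. Among mitotic genes, Ccnb2, a B-type cyclin, had 1.08, 2.73 and 5.85 CPM with DIP and 114, 133 and 188 CPM in 4T1, a rise of 5.61 ± 0.32. Kif23, a kinesin of the midbody, rose by 5.39 ± 0.27.

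Much less separated 4T1 from HC11 without DIP. There 17 of the 26 replication genes were called higher and 0 lower, with a median of 0.51, and of the 28 mitotic genes 16 were higher, 2 lower and 10 not called, with a median of 0.35. Within HC11 all 54 genes were called lower with DIP than without it, a comparison that does not use 4T1 and in which 10837 of 23829 genes (45.5%) were called, 24.5% higher and 21.0% lower with DIP.

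Repair genes tied to replication moved the same way: all 14 listed genes of homologous recombination and replication stress rose, with a median of 2.98. Exo1, a nuclease that resects DNA ends, rose by 4.84 ± 0.31, Bard1 by 4.65 ± 0.29 and its partner Brca1 by 4.33 ± 0.26. Against HC11 without DIP, 9 of the 14 were higher and 1 lower, with a median of 0.30.

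Regulators of entry into the cycle were more mixed. Of 19 genes for G1 cyclins, E2F factors and pocket proteins, 15 rose and 2 fell, with a median of 1.36. Against HC11 without DIP 5 were higher, 6 lower and 8 not called, with a median of -0.17. E2f8 and E2f7, atypical E2F repressors of the S phase, rose by 5.35 ± 0.33 and 4.98 ± 0.34, and Mybl2, which encodes B-MYB, by 4.59 ± 0.18. Ccnd1, cyclin D1, had 927, 1140 and 1293 CPM in 4T1 and 24.9, 60.4 and 121 CPM with DIP, a rise of 4.22 ± 0.24. HC11 without DIP lay between them at 156, 171 and 242 CPM, and 4T1 was 2.58 ± 0.11 higher there too. Ccnd1 was the only 1 of the 19 genes called at least 2-fold higher there, and 4 were called at least 2-fold lower.

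Of 18 CDK inhibitors and quiescence genes, 15 fell and 2 rose, with a median of -2.20. Most were also lower than in HC11 without DIP, where 13 fell and 1 rose, with a median of -1.68. Cdkn2a, which encodes the inhibitor p16 and the p53 activator p19ARF, had 0.471, 0.632 and 2.89 CPM in 4T1 and 34.8, 56.9 and 101 CPM with DIP. It fell by 5.71 ± 0.45, and by 6.16 against HC11 without DIP. The 2 highest 4T1 values, 2.50 and 2.89 CPM, belonged to libraries 1 and 2, and without them the fall was 6.59. Gas1, a growth arrest gene, fell by 5.49 ± 0.69 (6.64 without 4T1 libraries 1 and 2), and Txnip, an inhibitor of thioredoxin and glucose uptake, by 5.02 ± 0.78. Cdkn1a, the inhibitor p21, had 6.94, 9.38 and 10.5 CPM in 4T1 and 22.3, 73.2 and 98.9 CPM with DIP, a fall of 2.85 ± 0.27. Cdkn1b, the inhibitor p27, overlapped between the groups, with 47.4 to 62.9 CPM in 4T1 and 40.3 to 123 CPM with DIP, and fell by only 0.62 ± 0.19. Cdkn1c, the inhibitor p57, was at most 0.204 CPM in every library of both groups.

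Promoters of cycle genes are known to hold 2 short elements, a CCAAT box, bound by NF-Y, and the cell cycle genes homology region (CHR, TTTGAA), bound by MuvB complexes. RefSeq windows of 300 bases, from 250 before to 50 after a gene's start in build GRCm38.p6, were searched on both strands for CCAAT and TTTGAA. Of 32851 windows of all genes, 12289 (37.4%) held CCAAT, 5878 (17.9%) held TTTGAA and 2284 (6.95%) held both. The replication and mitosis lists had 49 windows for 44 of their 54 genes, of which 39 (79.6%) held CCAAT, 23 (46.9%) TTTGAA and 21 (42.9%) both. These shares describe the letters and show no binding. The bases before the start of Mki67, Cenpf, Bub1 and Depdc1a are shown because these genes were about 5 higher in 4T1 than with DIP on the log2 scale and less than 1 higher than in HC11 without it. Capitals mark CCAAT or TTTGAA, or their complements ATTGG and TTCAAA, and each stretch ends at the base before the start.
Mki67: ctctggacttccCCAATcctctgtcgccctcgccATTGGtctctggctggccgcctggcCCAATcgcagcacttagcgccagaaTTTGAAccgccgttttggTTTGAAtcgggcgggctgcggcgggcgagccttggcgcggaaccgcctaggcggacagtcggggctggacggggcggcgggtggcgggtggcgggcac
Cenpf: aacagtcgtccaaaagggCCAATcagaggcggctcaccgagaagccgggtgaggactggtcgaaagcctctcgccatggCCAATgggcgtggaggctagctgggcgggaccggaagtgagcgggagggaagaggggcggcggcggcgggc
Bub1: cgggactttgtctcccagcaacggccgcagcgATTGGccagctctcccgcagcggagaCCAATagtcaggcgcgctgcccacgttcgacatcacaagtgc
Depdc1a: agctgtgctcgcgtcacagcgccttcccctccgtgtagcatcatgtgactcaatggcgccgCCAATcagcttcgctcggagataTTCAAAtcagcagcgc
They lie at chr7:135716380-135716579 for Mki67, chr1:189688087-189688236 for Cenpf and chr2:127831860-127831959 for Bub1, all on the minus strand, and at chr3:159495333-159495432 on the plus strand for Depdc1a, in GRCm38.p6. Mki67 had CCAAT 3 times, with first bases at -188, -166 and -141, and TTTGAA at -116 and -98. Depdc1a had CCAAT at -39 and the reverse of TTTGAA at -16, while Cenpf (-132 and -71) and Bub1 (-68 and -42) had CCAAT at 2 places each and no TTTGAA in the stretch shown.

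Glucocorticoid response genes were lower in 4T1. Of 22 tested, 16 fell and 2 rose, with a median of -1.70, and without hormone-treated libraries 8 and 10, 19 fell and 2 rose, with a median of -1.93. Lcn2, lipocalin 2, fell by 7.45 ± 0.73, from 18.2, 222 and 757 CPM with DIP to 0.749, 1.21 and 2.82 CPM in 4T1. Angptl4, an inhibitor of lipoprotein lipase, fell by 4.84 ± 0.62. Nr3c1, the glucocorticoid receptor itself, had 42.1 to 49.0 CPM in 4T1 and 32.7 to 56.2 CPM with DIP and was not called (-0.04 ± 0.10, adjusted p = 0.692). Without libraries 8 and 10 it was 0.18 lower in 4T1 and passed the threshold (adjusted p = 0.0328), and with total counts only it was 0.34 lower (adjusted p = 0.00519). Against HC11 without DIP the list split, with 6 genes higher and 11 lower and a median of -0.45.

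Milk protein RNA was near the limit of detection. Csn2, which encodes β-casein, was at 0 in all 8 libraries of 4T1 and reached at most 0.0755 CPM with DIP, and Wap, whey acidic protein, was at 0 in 4T1 and at most 0.0573 CPM with DIP. Csn3, κ-casein, had at most 0.127 CPM in both groups. These 3 genes did not pass the filter on low counts, and a count of 0 allows up to 0.0135 to 0.0224 CPM at these depths. Of the 9 milk genes tested, 7 fell and 1 rose, with a median of -2.15. Wfdc18, a whey-acidic-domain protein, fell by 7.0 ± 0.90, with 0.713, 1.52 and 5.88 CPM in 4T1 and 2.83, 328 and 706 CPM with DIP, where the 2 lowest were libraries 8 and 10. Without 4T1 libraries 1 and 2 its fall was 7.83. Plin2, which coats lipid droplets, was the gene that rose, by 0.76 ± 0.28, and that call was lost with total counts only (adjusted p = 0.12) and with upper quartile factors (0.0502). Without libraries 8 and 10 the rise of Plin2 was 0.46.

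Genes of prolactin signalling fell in 9 of 17 cases and rose in 2, with a median of -0.51. The fall was much the same against HC11 without DIP, where 11 fell and 4 rose, with a median of -0.48. Prlr, the prolactin receptor, was at most 0.05 CPM in 4T1 and 0.012 to 0.593 CPM with DIP. Stat5a fell by 1.81 ± 0.36, Bcl6, a repressor induced in the mammary gland, by 3.56 ± 0.37, and Stat3 by 2.35 ± 0.20. Elf5, an ETS factor of alveolar cells, had at most 0.076 CPM in 4T1 and 0.054, 1.34 and 5.39 CPM with DIP. Of 16 insulin and FOXO genes 11 fell and 2 rose, with a median of -2.65. Against HC11 without DIP 12 fell and 2 rose, with a median of -1.415. Igfbp5, a binding protein of insulin-like growth factors, fell by 6.53 ± 1.00 (7.42 without 4T1 libraries 1 and 2), while its relative Igfbp4 rose by 4.27 ± 0.31, from 11.9, 31.5 and 68.8 CPM with DIP to 584, 673 and 776 CPM in 4T1. Sesn3, a FOXO target, fell by 3.71 ± 0.44.

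**Figure D2:**
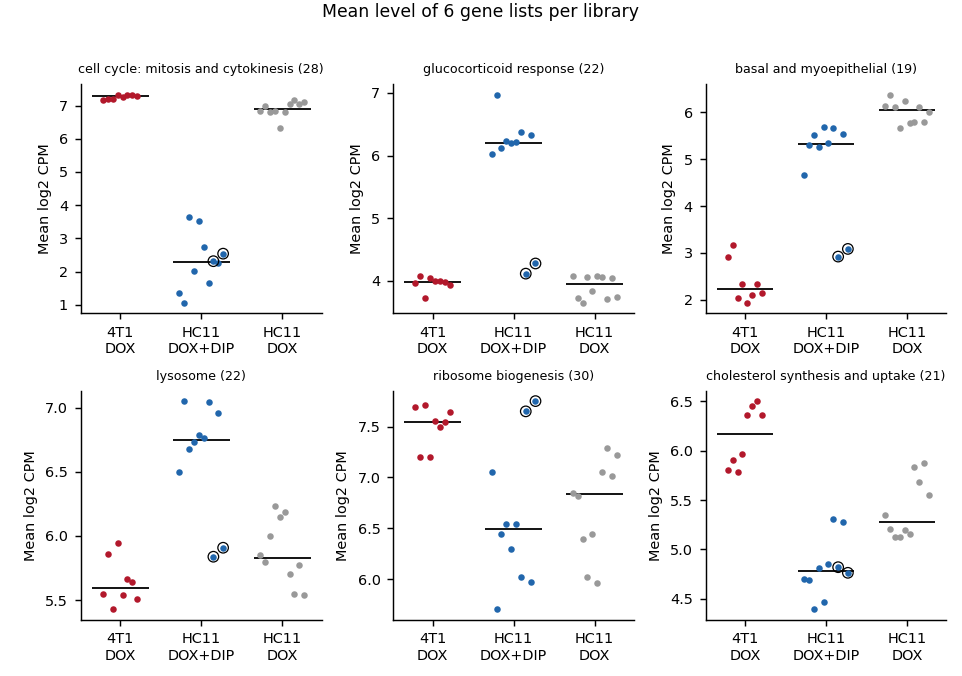
Mean log2 CPM over the members of 6 gene lists in each library, with bars at group medians and circles around hormone-treated libraries 8 and 10; the number of members is in brackets. The mitosis list sets all hormone-treated libraries apart, while for the glucocorticoid, basal, lysosome and ribosome biogenesis lists libraries 8 and 10 lie away from the other 8.

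The lines differed in the keratins they carried. Of 19 basal and myoepithelial genes 15 fell and 1 rose in 4T1, with a median of -3.03, and against HC11 without DIP 17 fell and 1 rose, with a median of -3.38. Trp63, the master factor of basal epithelium, had 0.519, 0.669 and 3.62 CPM in 4T1 and 9.20, 86.2 and 122 CPM with DIP, a fall of 5.88 ± 0.64. Krt5 had 10.8, 14.6 and 95.5 CPM in 4T1 and 56.8, 529 and 810 CPM with DIP, and fell by 3.89 ± 0.60. The groups overlapped through 4T1 libraries 1 and 2, at 64.8 and 95.5 CPM, and hormone-treated libraries 8 and 10, at 56.8 and 88.5 CPM. Krt15 fell by 6.69 ± 0.94 and Krt6a by 4.88 ± 0.71. Without 4T1 libraries 1 and 2 the falls were 6.91 for Trp63, 5.0 for Krt5 and 6.04 for Krt6a. Krt14, the partner of keratin 5, behaved differently, at 200, 235 and 316 CPM in 4T1 and 61.9, 462 and 727 CPM with DIP. Its fall of 0.82 ± 0.35 lost its call without any one of hormone-treated libraries 4, 6, 7 and 9 or of 4T1 libraries 1, 3, 5, 6, 7 and 8 (adjusted p up to 0.0677), with no filter (0.0526) and with limma voom (0.263). Without hormone-treated libraries 8 and 10 it was 1.16.

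Simple-epithelial keratins ran the other way. Krt18 had 698, 960 and 1093 CPM in 4T1 and 13.6, 24.7 and 82.3 CPM with DIP, and rose by 4.90 ± 0.32. Krt8, which pairs with keratin 18, rose by 3.17 ± 0.35 and Krt19 by 5.57 ± 0.63, and no library of one group reached the other for these 3 genes. Over the 14 luminal genes tested, 8 rose and 5 fell, with a median of 1.78. Ly6d, the member with the largest fall, decreased by 4.61 ± 0.69, and by 5.77 without 4T1 libraries 1 and 2.

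Against DIP, epithelial genes were mostly lower and mesenchymal genes mostly higher, with exceptions on both sides. Of 27 epithelial junction genes and factors 17 fell and 5 rose, with a median of -1.05. Of 16 mesenchymal genes 10 rose and 4 fell, with a median of 1.64. Against HC11 without DIP 19 epithelial genes fell and 6 rose, with a median of -1.16. Of 17 mesenchymal genes 8 rose and 6 fell there, with a median of 0.49. Cdh1, E-cadherin, was higher in 4T1, at 299, 365 and 416 CPM against 197, 221 and 252 CPM with DIP (0.73 ± 0.08). Epcam, an epithelial adhesion molecule, fell by 1.37 ± 0.23. Rab25, an epithelial trafficking GTPase, fell by 6.05 ± 0.43, and the epithelial factors Grhl1 and Ehf by 4.99 ± 0.28 and 7.66 ± 0.85. Nes, the intermediate filament nestin, rose by 8.47 ± 0.35, the largest rise named here. Snai2, which encodes the repressor Slug and is also active in basal cells, went against its list with a fall of 5.92 ± 0.56. Without 4T1 libraries 1 and 2 the falls were 6.90 for Rab25, 8.36 for Ehf and 6.91 for Snai2.

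**Figure D3:**
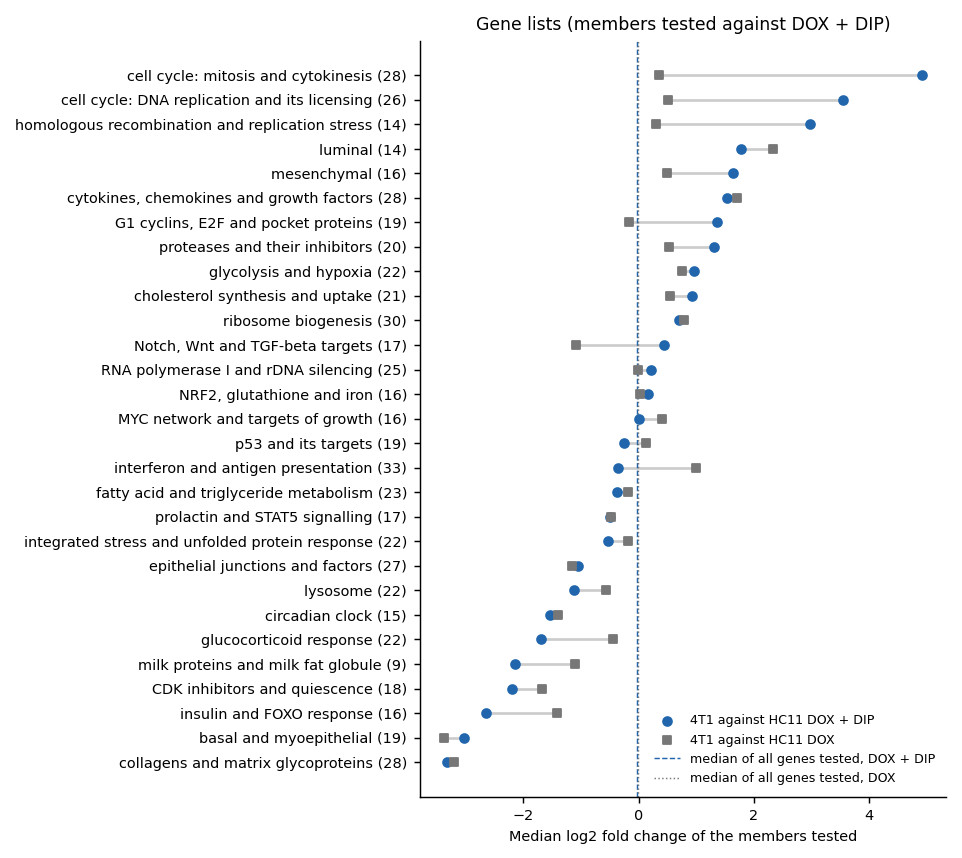
Median log2 fold change of the members of 29 gene lists for 4T1 against HC11 with DIP (blue circles) and against HC11 without DIP (grey squares), with vertical lines at the medians over all genes tested. The 3 lists at the top drop from 2.98 to 4.92 with DIP to 0.30 to 0.51 without it, while the basal and the matrix lists stay near -3 in both.

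Matrix genes were mostly lower in 4T1. Of 28 collagens and matrix glycoproteins 15 fell and 6 rose, with a median of -3.33. Postn, periostin, fell by 6.22 ± 0.76 from 35.2, 1757 and 2559 CPM with DIP to 10.2, 15.97 and 47.2 CPM in 4T1, and Col2a1, a cartilage collagen, fell by 5.99 ± 0.90. For both, the 2 lowest hormone-treated libraries were 8 and 10, and without 4T1 libraries 1 and 2 the falls were 6.82 and 6.66. Of 20 proteases and inhibitors 11 rose and 7 fell. Plau, urokinase, had 98.6, 116 and 148 CPM in 4T1 and 2.16, 4.04 and 5.402 CPM with DIP, a rise of 4.95 ± 0.18. Timp3, an inhibitor of metalloproteinases, fell by 5.61 ± 0.53 and Mmp2 by 4.89 ± 0.74, and without those 4T1 libraries by 6.74 and 5.48.

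Secreted factors were mostly higher. Of 28 cytokines, chemokines and growth factors 18 rose and 6 fell, with a median of 1.54, and the counts against HC11 without DIP were also 18 and 6, with a median of 1.70. Hbegf, a ligand of the EGF receptor, rose by 4.71 ± 0.38, from 0.883, 1.98 and 6.61 CPM with DIP to 56.7, 68.3 and 91.5 CPM in 4T1. Pdgfb, a ligand for the receptors of mesenchymal cells, rose by 4.68 ± 0.20 and Cxcl5, which attracts neutrophils, by 4.50 ± 0.36.

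Interferon and antigen presentation genes moved against DIP much as all genes did. There 12 of 33 rose and 14 fell, with a median of -0.36, near the 35.9% higher and 37.9% lower over all genes tested. Against HC11 without DIP 19 rose and 7 fell, with a median of 0.99. Within HC11, 21 were called higher and 1 lower with DIP than without it, against 24.5% and 21.0% of all genes tested. H2-D1, a class I molecule, had 461, 575 and 743 CPM in 4T1 and 29.0, 43.4 and 54.8 CPM with DIP, a rise of 3.83 ± 0.15, and H2-Q4 rose by 3.25 ± 0.13. Class I genes resemble each other closely, so reads may be split between them and these values are uncertain. Usp18, an interferon-induced protease, fell by 4.44 ± 0.41, with 9.54, 31.5 and 41.5 CPM with DIP.

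The 3 metabolic lists had medians between -0.38 and 0.97. Of 22 genes of glycolysis and hypoxia 15 rose and 3 fell, with a median of 0.97. Eno1, enolase, rose by 1.91 ± 0.20, Tpi1 by 1.71 ± 0.14 and Ldha, lactate dehydrogenase, by 1.56 ± 0.11, and these genes have processed copies that could share reads. Cholesterol synthesis and uptake genes rose in 18 of 21 cases and fell in 0, with a median of 0.93. Idi1, an isomerase of the isoprenoid units, had 95.8, 135 and 178 CPM in 4T1 and 8.41, 10.8 and 15.3 CPM with DIP, a rise of 3.62 ± 0.17. Fdps, which makes farnesyl diphosphate, rose by 2.50 ± 0.23. Fatty acid and triglyceride genes were mixed, with 7 rises and 11 falls among 23. Srebf1, the main factor of fatty acid synthesis, fell by 2.87 ± 0.45, the desaturase gene Scd1 by 2.62 ± 0.37 and Cpt1a, which carries fatty acids into mitochondria, by 3.04 ± 0.42.

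Ribosome biogenesis genes rose in 18 of 30 cases and fell in 0, with a median of 0.70. Without hormone-treated libraries 8 and 10, 26 rose and the median was 1.14, since those 2 had list means of 7.65 and 7.75 log2 CPM against 5.70 to 7.05 in the other 8 and 7.20 to 7.71 in 4T1. Npm1, nucleophosmin, rose by 2.02 ± 0.14, Bop1, a factor of the large subunit, by 1.82 ± 0.13 and Ncl, nucleolin, by 1.60 ± 0.20. Of 25 genes of RNA polymerase I and silencing of ribosomal DNA 10 rose and 5 fell, and their median of 0.22 became -0.09 with total counts only. Ubtf, which opens ribosomal DNA, rose by 0.65 ± 0.10, Polr1a, the largest subunit, was not called (-0.08 ± 0.24, adjusted p = 0.765, and 0.25 without libraries 8 and 10), and Rrn3, an initiation factor, passed the threshold only without libraries 8 and 10 (0.33, adjusted p = 0.00654). Dnmt1 and Suv39h1, writers of DNA and histone methylation, rose by 2.18 ± 0.15 and 2.71 ± 0.19. Sirt7, a nucleolar deacetylase, fell by 1.75 ± 0.07 and Baz2a, also called TIP5, which helps silence ribosomal DNA, by 0.72 ± 0.13.

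Myc depended on 2 libraries. It had 225, 244 and 289 CPM in 4T1 and 63.2, 141 and 1000 CPM with DIP, where libraries 8 and 10 had 887 and 1000 CPM and the other 8 at most 178. Over all libraries it was not called (-0.17 ± 0.51, adjusted p = 0.779), and without those 2 it was higher in 4T1 by 1.04 (adjusted p = 0.00011). Among 16 genes of the MYC network 7 rose and 5 fell, with a median near 0 that was 0.47 without libraries 8 and 10. Odc1, the enzyme that starts polyamine synthesis, rose by 3.52 ± 0.24. Mxd4 and Mxd1, antagonists of MYC, fell by 4.45 ± 0.26 and 2.3 ± 0.18.

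Genes were ranked by size only where they were called, averaged at least 2 in log2 CPM, had no overlap between the groups and were not predicted models, and several genes of lower level changed more. Within these limits the 8 largest rises were of Nes, Podxl, Ddah1, Padi4, Msln, Igf2bp2, Podnl1 and Gvin1, by 6.73 to 8.47. Podxl, an anti-adhesive sialomucin, had 68.8, 96.0 and 107 CPM in 4T1 and 0.138, 0.400 and 0.586 CPM with DIP. Msln, mesothelin, a surface protein of mesothelium and several tumours, had 306, 358 and 454 CPM in 4T1 and 0.611, 0.822 and 8.79 CPM with DIP. Igf2bp2, an RNA-binding protein, rose by 7.08 ± 0.44, and Padi4, which converts arginine to citrulline, by 7.73 ± 0.36. All 8 were also higher than in HC11 without DIP, by 5.46 to 9.62. Under the same limits the 8 largest falls were of Lbp, Ehf, Steap4, Lcn2, Fibin, Cited4, Adgrg2 and Wfdc3, by 7.43 to 7.96. Lbp, which binds bacterial lipopolysaccharide, had 0.151, 0.566 and 1.60 CPM in 4T1 and 4.61, 136 and 730 CPM with DIP. Cited4, a co-activator known in mammary differentiation, had 0.562, 1.17 and 3.45 CPM in 4T1 and 4.67, 317 and 527 CPM with DIP. For all 8, hormone-treated libraries 8 and 10 were the 2 lowest and 4T1 libraries 1 and 2 the 2 highest of their groups, and without those 4T1 libraries the falls were 7.89 to 8.52. Against HC11 without DIP these genes were lower in 4T1 by 3.44 to 5.33. Since they were picked for their size against DIP, smaller values there follow in part from the choice.

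Differences of at least 2-fold from DIP were next classed by the comparison with HC11 without DIP. A difference was called absent when it was not called there and the 95% interval of its log2 fold change lay between -1 and 1, and reversed when it was called in the opposite direction. A call of any size there was enough for reversed or for the same direction, so these classes also hold differences as small as absent ones. Of the 5132 genes higher in 4T1, 4205 (81.9%) were also called higher than without DIP, 675 (13.2%) were absent, 103 (2.01%) reversed, 137 undecided and 12 not tested there. Of the 6190 lower genes, 4811 (77.7%) were also lower, 366 (5.91%) were absent, 68 (1.10%) reversed, 249 undecided and 696 not tested. DIP and its absence in HC11 were themselves called different for 650 of the 675 absent genes higher in 4T1, for 360 of the 366 lower, for all 103 and for 67 of the 68 reversed genes. Those shares follow from how the classes were defined and say nothing further; among genes in the same direction they were 49.1% (higher) and 51.4% (lower). Genes in the same direction had a median of 1.79 against DIP and 1.12 against HC11 without it when higher, and -2.25 and -1.80 when lower.

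**Figure D4:**
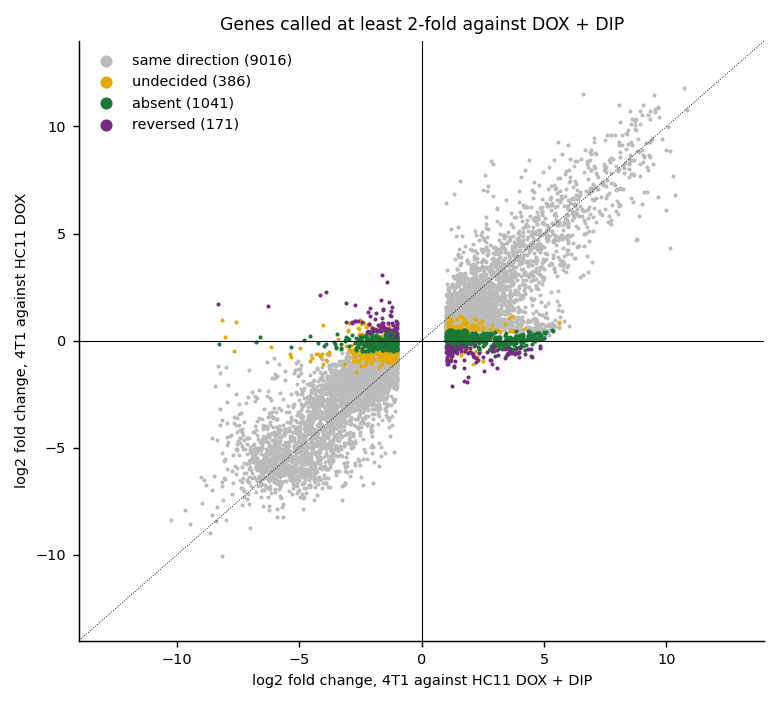
Log2 fold change of 4T1 against HC11 without DIP plotted over that against HC11 with DIP, for genes called at least 2-fold against DIP and tested in both, coloured by class. Absent genes (green) line the horizontal axis out to about 5 on the right, and 103 reversed genes (purple) lie below it on the right and 68 above it on the left.

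The 6 largest absent differences in the higher direction were of Cenpf, Cenpe, Bub1, Depdc1a, Aurkb and E2f7. Cenpf, a kinetochore protein, had 100, 135 and 153 CPM in 4T1, 0.791, 2.87 and 8.96 CPM with DIP and 24.4, 104 and 125 CPM without it. Its difference was 5.35 ± 0.40 against DIP and 0.46 against HC11 without DIP (adjusted p = 0.0532). Bub1, a kinase of the spindle checkpoint, had 82.6, 89.0 and 93.7 CPM in 4T1, 0.797, 2.37 and 7.01 CPM with DIP and 22.5, 70.5 and 97.0 CPM without it. Those values differed by 5.07 ± 0.35 against DIP and by 0.39 without (adjusted p = 0.0515). The kinesin Cenpe (5.32 and 0.50), Depdc1a (5.0 and 0.40), the kinase Aurkb (5.0 and 0.12) and E2f7 (4.98 and 0.13) followed. Of the 28 mitotic genes 10 were absent and 2 reversed, and of the 25 replication genes past 2-fold 8 were absent. Against HC11 without DIP 0 mitotic genes were called at least 2-fold different, and 4 replication genes were called at least 2-fold higher. The classes of these genes therefore rest mostly on which small differences were called. TTTGAA was in 26.7% and CCAAT in 51.6% of the 318 windows of absent genes that were higher than with DIP and differed between the HC11 groups, against 13.1% and 37.5% of the windows of all genes tested.

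The 6 largest absent differences in the lower direction were of Omd, Ppp1r15a, Atf3, Hist1h2bc, Trib3 and Chka. Atf3, a stress-induced repressor, had 8.18, 8.76 and 10.2 CPM in 4T1, 34.1, 81.5 and 220 CPM with DIP and 5.07, 5.41 and 11.3 CPM without it. It fell by 3.45 ± 0.33 against DIP and differed by 0.33 from HC11 without DIP (adjusted p = 0.104). Ppp1r15a, also called GADD34, which restores translation after stress, had 13.5, 16.3 and 18.7 CPM in 4T1, 55.0, 120 and 544 CPM with DIP and 14.6, 16.9 and 18.6 CPM without it. The 2 highest hormone-treated values, 502 and 544 CPM, were libraries 8 and 10, and without them the fall of 3.58 ± 0.47 was 2.86. Trib3, a pseudokinase induced by ATF4, fell by 2.96 ± 0.31 and Chka, choline kinase, by 2.72 ± 0.21, and for both the 3 groups had 4T1 and HC11 without DIP overlapping and DIP apart. Omd, a matrix proteoglycan, fell by 6.76 ± 0.92 although 4T1 and DIP overlapped, because libraries 8 and 10 had 0.357 and 0.631 CPM and the other 8 at least 27.3. Hist1h2bc, a histone gene with near-identical copies, fell by 3.28 ± 0.32 and is uncertain.

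Of the 22 genes of the integrated stress and unfolded protein responses 12 fell against DIP and 4 rose, with a median of -0.54, and against HC11 without DIP 10 fell and 6 rose, with a median of -0.19. Of the 10 that were past 2-fold against DIP, 3 were absent and 7 kept their direction. Ddit3, which encodes the factor CHOP, fell by 3.25 ± 0.29 against DIP and by 0.57 against HC11 without it. The stretches before the starts of Atf3 and Ppp1r15a are shown because neither gene was called different between 4T1 and HC11 without DIP, while both were higher with DIP. Capitals mark TTGCATCA, a sequence of the type bound by ATF4 with a C/EBP partner, in Atf3, and the cyclic AMP response element TGACGTCA in Ppp1r15a.
Atf3: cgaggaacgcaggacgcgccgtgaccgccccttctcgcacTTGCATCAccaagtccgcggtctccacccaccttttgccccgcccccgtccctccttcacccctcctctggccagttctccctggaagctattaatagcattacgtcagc
Ppp1r15a: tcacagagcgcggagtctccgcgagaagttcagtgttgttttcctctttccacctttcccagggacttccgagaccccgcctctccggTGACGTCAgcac
They lie on the minus strand at chr1:191183334-191183483 and chr7:45526269-45526368 in GRCm38.p6, with the element's first base at -110 in Atf3 and -12 in Ppp1r15a. On both strands TTGCATCA was in 294 of the 32851 windows (0.895%) and TGACGTCA, which is its own complement, in 588 (1.79%). Among the 229 windows of absent genes that were lower than with DIP and differed between the HC11 groups, the counts were 7 (3.06%) and 3 (1.31%), against 0.696% and 2.78% of the windows of all genes tested.

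Reversed genes were few. Their levels in 4T1 lay between those of the HC11 groups, which follows from how the class was defined. Ccne1, cyclin E1, had 9.85, 13.7 and 16.5 CPM in 4T1, 0.723, 1.84 and 6.34 CPM with DIP and 19.5, 39.1 and 52.7 CPM without it. It rose by 2.53 ± 0.37 against DIP, fell by 1.42 against HC11 without it, and no 2 of the 3 groups overlapped. Id3, an inhibitor of basic helix-loop-helix factors and a BMP target, rose by 2.87 ± 0.38 and fell by 1.08. Rell1, a relative of the TNF receptor family, had 30.1, 31.9 and 40.6 CPM in 4T1, 10.2, 17.9 and 19.7 CPM with DIP and 47.3, 64.3 and 79.7 CPM without it, again with no overlap. Nfatc2, a calcium-regulated factor, rose by 1.35 ± 0.24 and fell by 0.95. Mybl1 and Thbs1, thrombospondin 1, overlapped between 4T1 and DIP. Their rises of 1.08 ± 0.29 and 1.15 ± 0.31 were 0.83 and 0.85 without libraries 8 and 10, under 2-fold but still called. Dnmt1 and Tcf7, a Wnt-pathway factor, were also reversed, with rises of 2.18 ± 0.15 and 2.09 ± 0.17 against DIP and falls of 0.22 and 0.63 against HC11 without it.

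In the opposite direction Ccn2, the matricellular growth factor CTGF and a YAP target, had 184, 240 and 342 CPM in 4T1, 28, 4150 and 7765 CPM with DIP and 33.6, 42.2 and 106 CPM without it. It fell by 3.91 ± 0.74 against DIP and was 2.29 higher than in HC11 without DIP. Libraries 8 and 10, at 28 and 55.9 CPM, lay below all of 4T1, and the other 8 had at least 1924. Fkbp5, a glucocorticoid-induced co-chaperone, had 96.1, 102 and 105 CPM in 4T1, 22.1, 242 and 538 CPM with DIP and 28.1, 34.7 and 49.96 CPM without it. It fell by 1.25 ± 0.43 and rose by 1.40, with libraries 8 and 10 at 22.1 and 23.4 CPM. Agpat4, an acyltransferase of phospholipid synthesis, and Matn2, a matrilin of the matrix, showed the same arrangement, with 0.720 and 0.904 CPM in their lowest hormone-treated library and at least 22.2 and 37.7 CPM in the 8 others. Without libraries 8 and 10 the falls were 1.61 for Fkbp5, 1.79 for Agpat4 and 2.04 for Matn2. Agpat4 lost its call without any one of hormone-treated libraries 2, 7 and 9 or of 4T1 libraries 1, 3, 5, 6, 7 and 8 (adjusted p up to 0.0565). Leaving out 4T1 libraries 1 and 2 together, the falls of Matn2 (1.66, adjusted p = 0.05) and Agpat4 (1.465, adjusted p = 0.0632) were not called. Apol9a fell by 1.35 ± 0.34 and was 1.80 higher than without DIP. Naaa, an amidase of the lysosome, rested on libraries 8 and 10, at 32.9 and 37.5 CPM against 3.67 to 9.86 in the other 8, and its fall of 1.29 ± 0.43 was 0.47 without them. With limma voom the falls of Matn2, Agpat4, Fkbp5 and Naaa were not called (adjusted p = 0.492, 0.535, 0.203 and 0.0828).

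**Figure D5:**
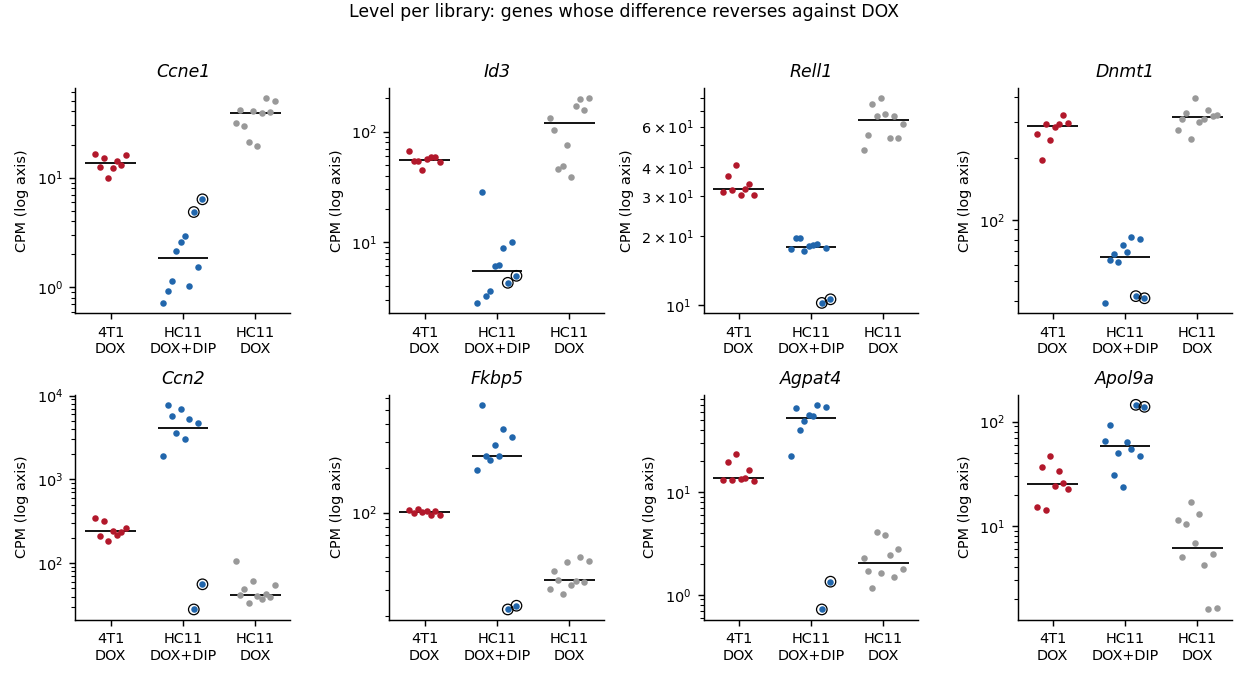
Levels in CPM on a log axis for 8 reversed genes in each library, coloured as in the marker plot, with circles around hormone-treated libraries 8 and 10. In the upper row the 4T1 libraries lie above DIP and, by the medians, below HC11 without DIP. In the lower row the 4T1 medians lie between the other 2, and for Ccn2, Fkbp5 and Agpat4 libraries 8 and 10 lie under all of 4T1.

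Most defining markers of other cells were near 0, with exceptions in each line. Of 9 fibroblast and pericyte markers 6 were tested, 5 fell and 0 rose, and their summed level was 9.44 to 15.0 CPM in 4T1 and 22.0 to 273 CPM with DIP. Dcn reached 204 CPM and Pdgfrb 53.1 CPM with DIP and at most 0.801 and 0.501 CPM in 4T1, values that move with the matrix genes, and their part in those results was not tested. Of 11 blood and immune markers 4 were tested, with 1 rise, of Csf1r, and 2 falls and summed levels of 15.1 to 22.5 CPM in 4T1 and 10.2 to 27.5 CPM with DIP. The rise of Csf1r was not called when any single library other than hormone-treated 8 or 10 was left out. Leaving out 4T1 libraries 1 and 2 together, that rise was 0.23 and not called (adjusted p = 0.234). The defining markers Ptprc, Adgre1 and Tyrobp were at most 0.0613 CPM in every library of both groups. Of 7 endothelial markers 2 were tested, with summed levels of 12.5 to 23.5 CPM in 4T1 and 0.572 to 1.76 CPM with DIP. Egfl7, a secreted protein, rose by 5.75 ± 0.19 and made up nearly all of that level in 4T1, while Pecam1 fell by 2.05 ± 0.30 and Cdh5 and Kdr were at most 0.0311 CPM. Of 6 adipocyte markers only Fabp4 was tested, at 0.0785 to 0.188 CPM in 4T1 and 0.134 to 125 CPM with DIP, and Adipoq was at most 0.0739 CPM. The epithelial markers Cdh1, Epcam, Krt8 and Krt18 each had at least 13.6 CPM in every library of the comparison. Of the 27 epithelial junction genes and factors, however, 17 fell in 4T1 and 5 rose.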

How the data were processed

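Per the labels' protocols, total RNA was extracted with TRIzol and libraries were made with a NEBNext Ultra II kit after removal of ribosomal RNA. The submitters' processing notes name fastp 0.23.2, featureCounts 2.0.1 and build GRCm39. The sources used here give neither an aligner nor whether counting used strand, so reads of antisense pairs may be mixed. The authors deposited whole, unnormalised read counts per gene, 1 table per library, with 56748 Ensembl identifiers, of which GENCODE vM21 names 52073. Of 647 list names all but 1 were found.

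The test was that of edgeR 4.0.16 in R 4.3.3 (filterByExpr, TMM, robust glmQLFit, glmQLFTest), each pair of groups alone, with Benjamini-Hochberg adjustment over all genes tested. The biological coefficient of variation was 0.388 against DIP and 0.301 against HC11 without it. On simulated counts of 24132 genes, only 62 genes were changed 1.5-fold, 69 changed 2-fold and 69 changed 4-fold. The test against DIP recovered 22.6%, 60.9% and 87.0% of these, with 5 false calls. In the data 73.8% of genes were called, far more than were changed in the simulation. The simulation therefore does not give the rate of missed or false calls for these data. Alternatives were DESeq2 1.42.0, limma 3.58.1 voom, other scalings, no filter, all 3 groups in one fit, and leaving out libraries. Promoter windows came from RefSeq (GRCm38.p6), used for sequence only, since the counts use another build. Python 3.11.15 was used for summaries.

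The comparison, the gene lists and the rule for genes named were chosen with earlier results of these data known. Named genes were the 4 markers; the 8 largest rises and falls among called genes with mean log2 CPM of at least 2 and no overlap of groups; the 6 reversed genes in each direction with the largest smaller change and the 6 largest absent ones; and, per list, up to 3 called members with the largest change plus defining members. One gene that the rule names is not reported here. Markers of other cells were named from their lists after their values were seen. Libraries are numbered in the order of the series within a group, as names only.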

Additional observations from a re-analysis of the deposited data

Results flagged for a closer look

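A library far from the rest of its group was found for 5 of 284 tests of named genes in a group, all with DIP, by Dixon's test at a level where chance gives about 1 in 20. The 5 found are fewer than that share. Odc1 had 26.6 CPM in library 2 against 60.7 to 155 in the other 9. Nr3c1 had 32.7 CPM in library 10 against 42.1 to 56.2. Library 1 accounted for the other 3: Cdkn1c had 0.0108 CPM against 0.0622 to 0.204, Csn2 had 0.0755 CPM against 0 to 0.0128, and Baz2a had 47.5 CPM against 77.8 to 113. The Cdkn1c value of library 1 and the Csn2 values of the other libraries lay under the 0.0135 to 0.0224 CPM that a count of 0 allows.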

How the results depend on the processing

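The count of genes at least 2-fold lower in 4T1 was 10381 with no filter on low counts, where 43373 genes were tested. With all 3 groups in one fit, 68 genes higher than with DIP were reversed, 231 higher and 451 lower genes were undecided. Without 4T1 libraries 1 and 2, 408 lower genes were undecided. Myc was 1.04 higher without hormone-treated libraries 8 and 10, against -0.17 with them. The median of the RNA polymerase I list became -0.0918 with total counts only, and that of the MYC network list was 0.36 with limma voom and 0.47 without libraries 8 and 10; apart from the left-out libraries, the cause was not tested. Of the values recomputed for named genes and lists under 27 alternatives, 3978 kept their call or, for list medians, moved by less than 1 SD of the list's mean over hormone-treated libraries, 53 lost the call, 3 gained it (Nr3c1 under 2 alternatives and Rrn3), 12 list medians moved by more, and 4, those of Myc and the lists just given, changed sign, Myc with a call gained. Calls were lost for Matn2, Agpat4, Fkbp5, Naaa, Plin2, Nqo1, Csf1r and Krt14. The share of calls that were higher in 4T1 was 37.5% with total counts only, 42.9% with upper quartile factors and 44.9% with DESeq2, against 48.6%, and the median over all genes was -0.30, -0.16 and -0.10. No paired analysis was possible because the labels give no replicate numbers. At these depths a level under 0.0135 to 0.0224 CPM could not be told from 0.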

Other observations

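Clock genes were lower in 4T1. Of 15 tested 13 fell and 1 rose against DIP, with a median of -1.54, and 10 fell and 2 rose against HC11 without DIP, with a median of -1.40. Per2, a repressor of the clock, had 1.81, 2.56 and 3.26 CPM in 4T1 and 35.5, 46.5 and 52.2 CPM with DIP, a fall of 4.10 ± 0.15. Per1, its relative, which glucocorticoids also induce, fell by 3.44 ± 0.14, and Dbp, an output factor of the clock, by 2.81 ± 0.40. Lysosome genes fell in 14 of 22 cases and rose in 3, with a median of -1.12. Ctsd, the protease cathepsin D, had 149, 182 and 254 CPM in 4T1 and 304, 4367 and 8144 CPM with DIP, where libraries 8 and 10 had 304 and 396 CPM. Hexa, a hexosaminidase, fell by 3.96 ± 0.16 and Atp6v0d1, a proton pump subunit, by 2.37 ± 0.12, and neither had overlapping groups.

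Of 19 genes of the p53 list 10 fell and 6 rose, with a median of -0.25. Trp53 itself had 36.2, 47.9 and 52.1 CPM in 4T1 and 66.6, 110 and 523 CPM with DIP, and its fall of 1.91 ± 0.39 was 1.15 without libraries 8 and 10, which had 450 and 523 CPM. Trp53inp1 and Perp, targets of p53, fell by 4.58 ± 0.34 and 3.49 ± 0.42. Of the 16 NRF2, glutathione and iron genes 6 rose and 5 fell, against 35.9% higher and 37.9% lower over all genes tested. Ftl1, ferritin light chain, which has processed copies, rose by 1.47 ± 0.12, Hmox1, haem oxygenase, fell by 1.60 ± 0.17, and the fall of Nqo1, 1.74 ± 0.50, was not called with limma voom (adjusted p = 0.0735). Notch, Wnt and TGF-beta targets rose in 8 of 17 cases and fell in 7, with a median of 0.43, whereas against HC11 without DIP 5 rose and 11 fell, with a median of -1.08. Jag2, a Notch ligand, fell by 2.81 ± 0.16.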
